A study of Mus musculus with 12 samples.

Results

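The genes described are 5 tissue kallikreins, Klk1, Klk8, Klk10, Klk11 and Klk13, and the protease inhibitor Spink1, in mouse colonic organoids given calcitriol, 1,25(OH)2D3, the hormonal form of vitamin D. They were taken as all array probes whose transcript accession belonged to one of these 6 symbols, which gave 1 probe a gene, and 5 of the 6 genes were among the 24245 genes tested. The set was picked because Klk11 rose and Spink1 fell with calcitriol in wild-type organoids, that is, it was chosen by the wild-type calcitriol differences, which are therefore given as descriptions with no test.

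The organoids are epithelial cultures grown in Matrigel from the colon crypts of C57BL/6 mice, 3 wild type and 3 VDR KO, which lack the vitamin D receptor. Each mouse's culture received either calcitriol at 100 nM or the ethanol vehicle (EtOH), renewed every 48 h, so that 4 groups of 3 arrays were made: wild-type vehicle, wild-type calcitriol, knockout vehicle and knockout calcitriol. The exposure is labelled 62 h for the samples and 72 h for the series. In both genotypes replicates 1 and 3 came from mice of 2 months and replicate 2 from a mouse of 3 months, and a replicate number marks the same mouse in vehicle and calcitriol. Each gene's level below is the log2 signal relative to the 75th percentile of its array, so 0 is the signal that 75% of the spots do not exceed. Levels of different genes are not compared, because each probe binds with its own efficiency.

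Tissue kallikreins are secreted serine proteases of the trypsin fold that are made as inactive proenzymes, activate one another by cleaving off a propeptide, and cut targets such as kininogen, matrix proteins and protease-activated receptors. In the mouse they lie side by side on chromosome 7, where a run of Klk1-like duplicates (the Klk1b genes) adjoins the single-copy members. Spink1 is a small Kazal-type inhibitor that blocks trypsin, best known from the pancreas, and is also made by gut epithelium. Calcitriol acts through the vitamin D receptor, which with its RXR partner typically binds pairs of AGGTCA-like hexamers spaced by 3 bases.

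The order of the annotated genes along the chromosome put Klk11 between Klk12 and Klk10, with Klk9 and Klk8 beyond Klk10, Klk13 on the other side of Klk12, and Klk1 at the far end of the Klk1b run. Promoter windows were searched for the 5 kallikreins and not for Spink1. They came from RefSeq on GRCm38.p6 and ran from 250 bases before to 50 bases after a transcript start. The windows of Klk11, the kallikrein that moved, and of Klk1, the kallikrein with the most receptor-type hexamers, are shown, all on the plus strand. Capitals mark every match, on either strand, to 4 hexamers: AGGTCA as well as GGGTCA, and likewise AGTTCA as well as GGTTCA.
Klk11, first start, chr7:43774367-43774666: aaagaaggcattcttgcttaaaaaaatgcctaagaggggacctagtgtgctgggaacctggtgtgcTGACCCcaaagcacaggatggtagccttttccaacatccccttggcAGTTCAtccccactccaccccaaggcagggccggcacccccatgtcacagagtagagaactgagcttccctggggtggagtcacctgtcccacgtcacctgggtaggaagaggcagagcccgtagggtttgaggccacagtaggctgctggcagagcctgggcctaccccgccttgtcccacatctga
Klk11, second start, chr7:43776079-43776378: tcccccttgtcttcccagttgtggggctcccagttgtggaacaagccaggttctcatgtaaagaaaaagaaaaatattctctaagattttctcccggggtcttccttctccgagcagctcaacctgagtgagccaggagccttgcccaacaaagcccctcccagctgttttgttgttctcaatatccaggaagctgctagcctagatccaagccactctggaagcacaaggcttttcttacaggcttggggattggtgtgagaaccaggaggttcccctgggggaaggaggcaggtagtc
Klk1, chr7:44225110-44225409: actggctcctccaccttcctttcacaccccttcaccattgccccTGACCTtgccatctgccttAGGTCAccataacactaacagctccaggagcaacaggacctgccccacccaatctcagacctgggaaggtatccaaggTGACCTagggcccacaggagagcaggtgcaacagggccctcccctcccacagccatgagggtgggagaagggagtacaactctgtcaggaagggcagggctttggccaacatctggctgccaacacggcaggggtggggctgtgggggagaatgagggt
The starts of the 2 Klk11 windows are 1712 bases apart. The first window held TGACCC, which is GGGTCA on the minus strand, at position -184 from the start and AGTTCA at -138. The second held none of the 4 hexamers. The Klk1 window held AGGTCA at -187 and, on the minus strand, at -206 and -109, although Klk1 showed no called difference in any tested comparison. Klk8 had GGTTCA at -87, Klk13 had AGTTCA at -21 and Klk10 had no match. A match to any of the 4 hexamers occurred in 43.7% of the 32851 promoter windows. A direct repeat of 2 of them with a 3-base spacer occurred in 0.0396% of windows and in 0 of the 6 kallikrein windows. These matches describe the letters of short windows only; binding was not measured.

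The labels and the cultures were checked on other genes. Vdr ranged from 0.81 upward on the wild-type arrays and up to 0.36 on the knockout arrays, with no overlap. Its probe was still well above background on all 6 knockout arrays, with knockout means of -0.01 with vehicle and -0.09 with calcitriol. Cyp24a1, the enzyme that degrades calcitriol, was not well above background on any of the 6 knockout arrays. In wild type Cyp24a1 went from -6.03 ± 1.72 with vehicle to 5.97 ± 0.43 with calcitriol (SD, n = 3 each). All 14 colon epithelium markers were well above background on all 12 arrays, against 1 of 8 markers of stroma and endothelium and 3 of 9 pancreatic acinar markers. The same held for 3 of 8 immune markers, and no immune marker was at background on every array. It also held for 3 of 7 listed Paneth cell markers, not all of which were on the array. The marker signals therefore do not show that the cultures were free of immune cells. The part of immune and Paneth cells in the levels was not tested. Pancreatic acinar markers are given because Spink1 and trypsins are pancreatic products; Cela2a was at background on every array. The 3 slides held 2, 3 and 7 arrays, and of the 6 mice just wild-type mouse 3 was hybridised within a single slide in both conditions. The array of wild-type vehicle replicate 2 stood apart, with 72.8% of its spots well above background and a median spot signal of 89.9 against 24.7 to 56.9 on the other 11 arrays.

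Klk11, a trypsin-like kallikrein also known as hippostasin, was high on the wild-type calcitriol arrays alone. In wild-type mice 1, 2 and 3 its level was -6.64, -4.75 and -4.59 with vehicle. With calcitriol it was 0.10, -0.44 and -2.02. In knockout mice 1, 2 and 3 it was -6.16, -5.77 and -5.45 with vehicle and -4.86, -4.67 and -6.13 with calcitriol. The 3 wild-type calcitriol arrays lay above all 9 other arrays, which overlapped one another; 4.67% of all genes separated the wild-type groups in this direction. The probe was well above background on all 3 wild-type calcitriol arrays, on 1 of 3 wild-type vehicle arrays (mouse 3), on 1 of 3 knockout vehicle arrays (mouse 3) and on 2 of 3 knockout calcitriol arrays (mice 1 and 2).

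The wild-type calcitriol mean of Klk11 was -0.79 ± 1.1 and the vehicle mean was -5.32 ± 1.14 (SD, n = 3 each), a difference of 4.54 (SE 0.66) or 23.2-fold. Since the probe was dim on 2 vehicle arrays, the difference depended on how background was treated: it was 2.45 after normexp background correction and 3.91 with the dim arrays raised to the lowest well-measured signal of their array. On that raised scale calcitriol was at least 41.7-fold higher than vehicle in mouse 1 and at least 13.7-fold higher in mouse 2, and it was 5.94-fold higher in mouse 3, whose arrays were both well above background and shared a slide. The difference was 3.71 with slide as a block and 4.83 without the vehicle array of replicate 2. It was 3.80 on the largest slide alone, where the only wild-type vehicle array is that of mouse 3, the highest of the 3. In bulk RNA, more cells that make Klk11 and more Klk11 RNA per cell cannot be told apart.

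**Figure D1:**
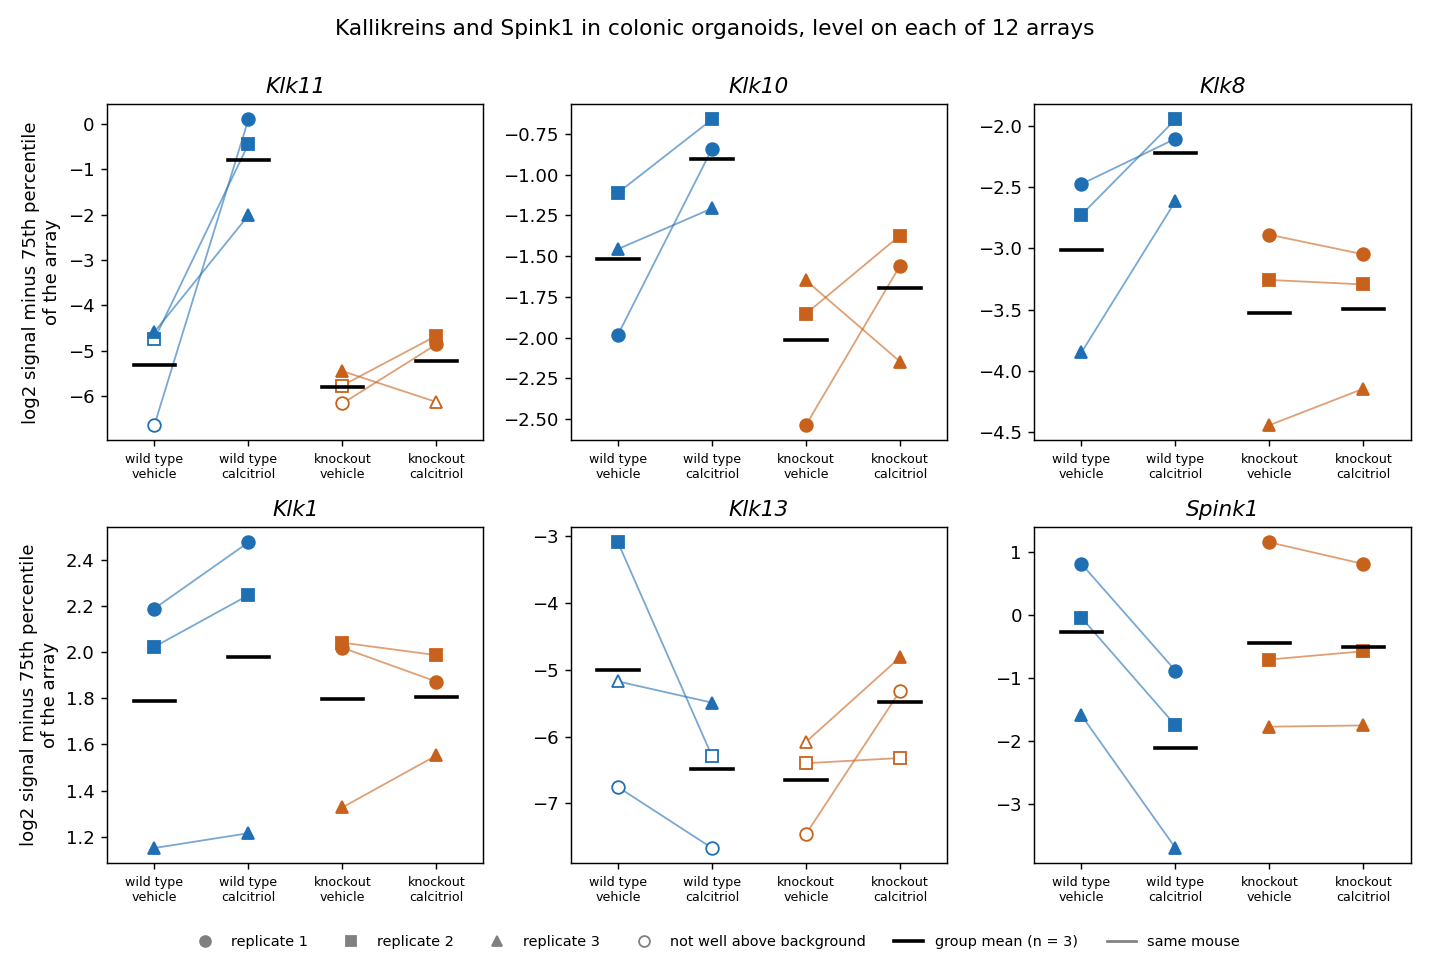
Level of each gene (log2 signal minus the array's 75th percentile) on each of 12 arrays; markers are replicates, lines join the vehicle and calcitriol arrays of a mouse, bars are group means and open symbols are arrays where the probe was not well above background. The 3 wild-type calcitriol values of Klk11 lie between -2.02 and 0.10, above all other arrays, and the lines of Spink1 fall in all 3 wild-type mice.

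In the knockout calcitriol was not followed by a called change in any member. The stated reason for picking the genes lay in wild type, but the genes were picked with earlier results of these data known. With all 12 arrays in one limma fit and Benjamini-Hochberg adjustment over all genes, 0 of the 5 tested members passed 0.05; 0% of all genes passed, 1395 genes reached 0.05 before adjustment, and with mouse as a replicate block 0 genes passed and 1943 reached 0.05 before adjustment. The Klk11 difference was 0.57 (SE 0.66, 95% interval -0.87 to 2.01, adjusted p = 0.999872 by limma), higher in 2 of 3 mice. Klk11 passed the filter through the wild-type calcitriol group alone. Its probe was well above background on 1 of 3 knockout vehicle and 2 of 3 knockout calcitriol arrays, so the knockout difference was poorly measured. Between genotypes the Klk11 effect differed by 3.96 (SE 0.93), given without a test because the wild-type arrays picked the gene. Under calcitriol the knockout mean was -5.22 ± 0.79 (SD, n = 3), 4.43 below wild type. That difference was -2.61 after normexp background correction and -4.23 with the dim array raised as above, the probe being dim on 1 of the 3 knockout arrays. Under vehicle the knockout mean was -5.79 ± 0.36 against -5.32 ± 1.14, within the spread of the arrays.

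Klk10, the kallikrein next to Klk11, was well above background on all 12 arrays. Its level in wild-type mice 1, 2 and 3 was -1.98, -1.11 and -1.46 with vehicle and -0.84, -0.66 and -1.21 with calcitriol. In knockout mice 1, 2 and 3 it was -2.54, -1.85 and -1.65 with vehicle and -1.56, -1.37 and -2.15 with calcitriol. The calcitriol array was the higher one in all 3 wild-type mice, by 0.25 to 1.14, and in 2 of 3 knockout mice, but vehicle and calcitriol values overlapped in both genotypes. The wild-type difference was 0.61 (SE 0.30), and the knockout difference was 0.32 (95% interval -0.35 to 0.99, limma adjusted p = 0.999872).

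Klk8, known as neuropsin from its role in synaptic remodelling and also made in skin, was likewise well above background on all 12 arrays. Its level in wild-type mice 1, 2 and 3 was -2.48, -2.73 and -3.85 with vehicle and -2.11, -1.95 and -2.61 with calcitriol. In knockout mice 1, 2 and 3 it was -2.89, -3.26 and -4.44 with vehicle and -3.05, -3.29 and -4.14 with calcitriol. Calcitriol was higher in each wild-type mouse, by 0.37 to 1.23, with a mean difference of 0.79 (SE 0.47) and overlapping groups. This difference was 0.38 without the vehicle array of replicate 3 and 0.42 after normexp background correction. The knockout difference was 0.03 (95% interval -0.99 to 1.06, limma adjusted p = 0.999872). A slide term in the fit gave 0.88 in wild type and 0.90 in the knockout, and the largest slide alone gave 1.62 and 1.27, where mouse 3 gives the only vehicle array of each genotype.

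Klk8 and Klk10 separated the genotypes under calcitriol without passing the adjusted test. Klk8 was 1.27 lower in knockout than in wild-type calcitriol cultures (SE 0.47, 95% interval -2.30 to -0.25), and every knockout value lay below every wild-type value; after normexp background correction the difference was -0.70. Klk10 was 0.79 lower (SE 0.30, 95% interval -1.46 to -0.12), again with no overlap. Complete separation with knockout lower was seen for 3.73% of all genes, and 0.206% of all genes passed the adjusted test; none of Klk1, Klk8 and Klk10 did, the limma adjusted p being 0.999898 for each. With the replicate number as a block the adjusted p from limma was 0.0791 for Klk8 and 0.106 for Klk10. Under vehicle the differences were -0.51 for Klk8 and -0.50 for Klk10, with overlapping groups and limma adjusted p-values of 0.796 and 0.669, and turned to 0.25 and 0.26 with each array scaled to its median; 0.00412% of all genes passed there, and none of these 3 kallikreins did. The order of the group means was the same for both genes: wild-type calcitriol, wild-type vehicle, knockout calcitriol and knockout vehicle, and neighbouring groups in it overlapped.

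Klk1, the true tissue kallikrein that releases kinins from kininogen, had no called difference between groups in the tested comparisons. Its mean was 1.79 ± 0.56 and 1.98 ± 0.67 in wild-type vehicle and calcitriol and 1.80 ± 0.41 and 1.80 ± 0.23 in knockout vehicle and calcitriol (SD, n = 3 each). The spread went with the replicate number, which marks different mice in wild type and knockout. Replicate 3 ranged from 1.15 to 1.55 over the 4 groups and was the lowest array of each group. The other 8 arrays ranged from 1.87 to 2.48. The knockout difference with calcitriol was 0.01 (95% interval -0.75 to 0.77, limma adjusted p = 0.999872), the vehicle genotype difference was 0.01 (adjusted p = 0.999) and the calcitriol genotype difference was -0.18 (adjusted p = 0.999898). With mouse as a replicate block the interval of the knockout difference narrowed to -0.21 to 0.22.

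Klk13, a kallikrein best known from squamous epithelia, was not measured well enough to be tested. It was well above background on 3 of 12 arrays: wild-type vehicle replicate 2 at -3.10, wild-type calcitriol replicate 3 at -5.49 and knockout calcitriol replicate 3 at -4.82. The highest of these was on the array that stood apart by its share of bright spots. On the other 9 arrays the probe lay between -7.67 and -5.18, where values have no reliable order. Of 8 squamous and basal epithelium markers, read by each gene's brightest probe, 5 were well above background on all 12 arrays and Sprr1b on none. Probes of the same gene disagreed for some: a further Trp63 probe was above background on 0 of 12 arrays and a further Krt5 probe on 1. Further probes of Krt13 and Ivl were above background on all 12. The summed level of the 8 markers, in multiples of the array's 75th percentile, was 8.87 to 24.1 in wild-type vehicle and 16.7 to 19.9 in wild-type calcitriol. In the knockout it was 7.74 to 14.5 with vehicle and 9.93 to 20.4 with calcitriol. The part of squamous and basal cells in the kallikrein levels was not tested.

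**Figure D2:**
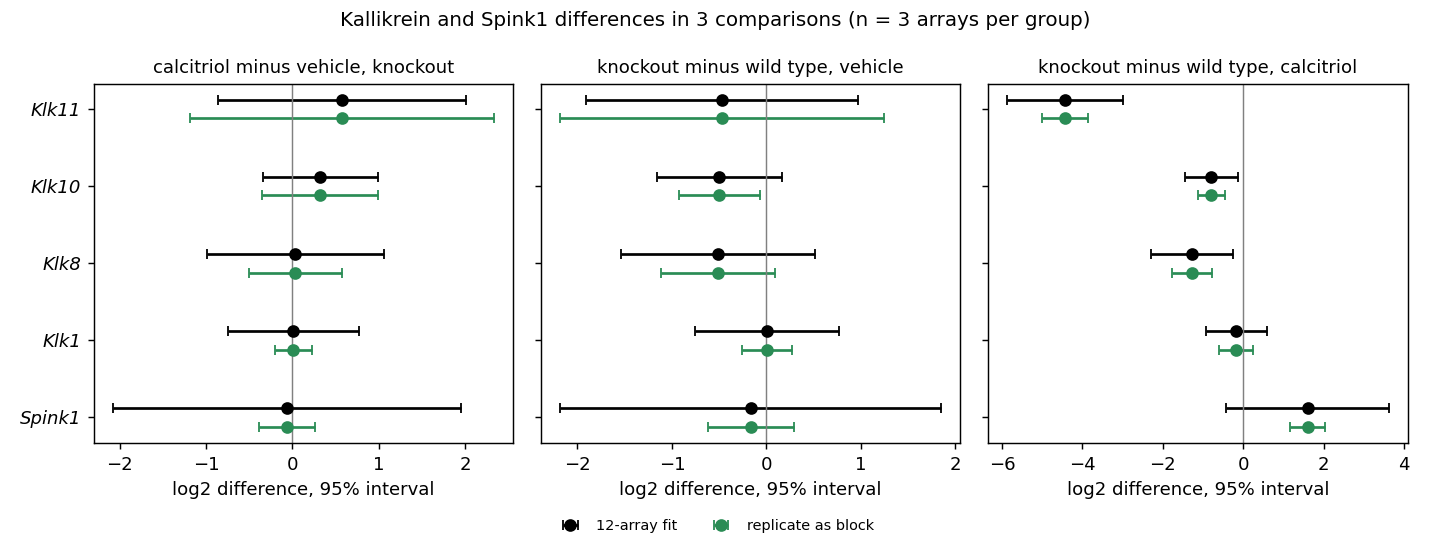
Differences (log2, points) with 95% intervals (bars) of the 5 measured members in 3 comparisons, from the fit of 12 arrays (black) and with replicate as a block (green), n = 3 arrays a group. In the knockout all intervals include 0, while under calcitriol those of Klk11, Klk10 and Klk8 lie below 0 in both fits; Klk11 and Spink1 in the genotype panels are descriptions, since wild-type arrays picked them.

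The other genes of the kallikrein cluster were read in the same comparison. Of the 26 kallikrein genes between Klk14 and Klk1, 18 were tested, and the 17 other than Klk11 had wild-type calcitriol differences from -0.40 (Klk12) to 2.40 (Klk1b9) with a median of 0.31, against a median of -0.03 over all genes; 0 of the 14 that do not belong to the set passed the limma test, where 0.161% of all genes did. The knockout differences of the same 17 genes ran from -0.06 to 1.16 with a median of 0.15. Klk12, directly beside Klk11, had a level of -2.93 ± 0.18 with vehicle and -3.33 ± 0.10 with calcitriol in wild type (SD, n = 3 each), a difference of -0.40. Among the 8 other single-copy tissue kallikreins, 4 were tested and 0 were called in any comparison; Klk6 was -0.14 ± 0.93 with vehicle and -0.01 ± 0.74 with calcitriol in wild type, and Klk7, an epidermal protease, was above background on none of 12 arrays.

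Of the 13 Klk1b paralogs, 10 were tested and 0 were called in the 12-array fit. All 10 lay above 0 with calcitriol in wild type, with a median of 0.33, where 44.8% of all genes did. In the knockout 8 of 10 did, with a median of 0.15, where 59.0% of all genes did. Given the correlations below, the 10 are not separate readings. Klk1b5 and Klk1b26, those with the brightest probes, differed by 0.21 and 0.23 in wild type. Klk1 and its 10 tested paralogs are close duplicates, and over the 12 arrays, which share mice and slides, their levels correlated with that of Klk1 with Pearson r from 0.49 (Klk1b21) to 0.99 (Klk1b4). Whether a probe for one of them also binds RNA of another was not tested, so the values of single paralogs are uncertain. Klk1b9, singled out after its values were seen, was -5.82 with vehicle and -3.41 with calcitriol in wild type, at least 2.51-fold higher because its probe was above background on none of the vehicle arrays, with a limma adjusted p of 0.554. It was 2.21 lower in knockout than in wild type under calcitriol, with a limma adjusted p of 0.744 and, with replicate number as a block, 0.0439. Without number 1 or 2 this blocked p was 0.239 and 0.120. Klk1b9 passed the filter through the wild-type calcitriol group alone, where its probe was above background on 3 of 3 arrays. The p-values of Klk1b9 compare that same group and are no independent test.

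**Figure D3:**
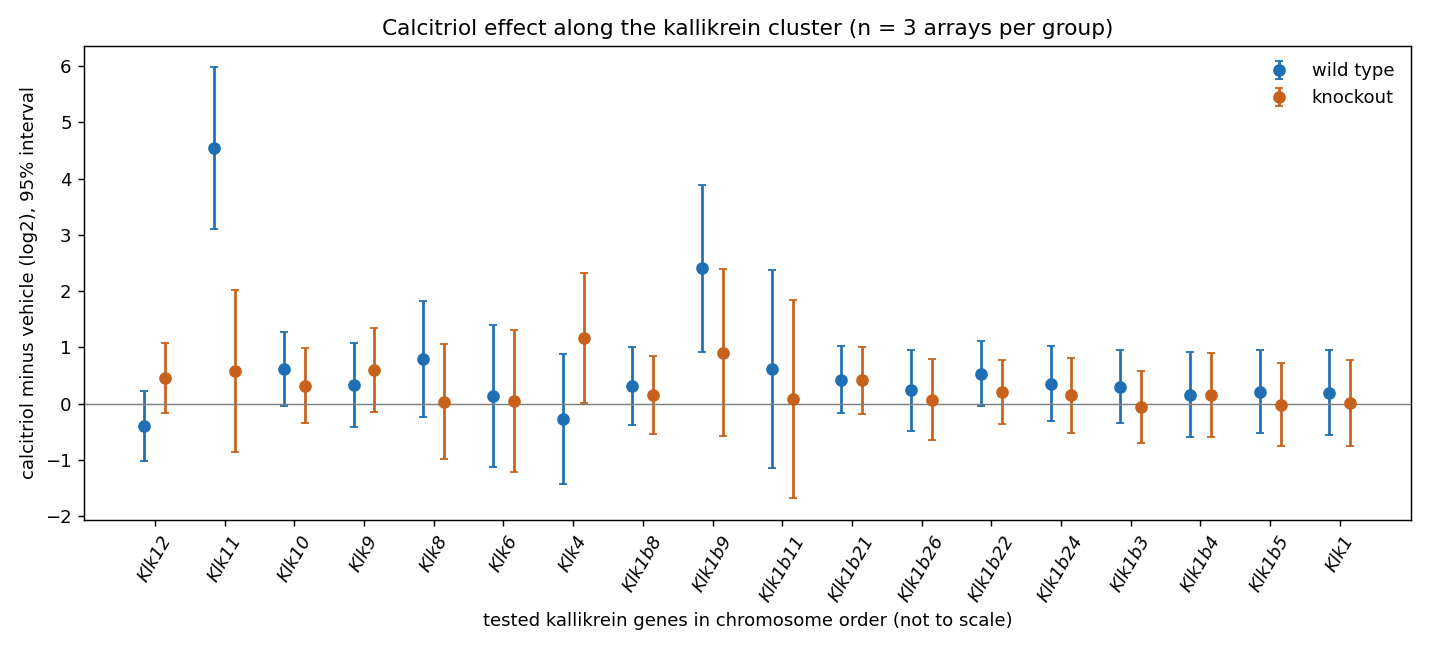
Calcitriol minus vehicle (log2, points with 95% intervals) in wild type (blue) and knockout (orange) for the 18 tested kallikrein genes in their order on the chromosome, not to scale, n = 3 arrays a group. Klk11 in wild type stands at 4.54; the other wild-type points lie between -0.40 and 2.40.

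Spink1, the trypsin inhibitor of the set, was lower with calcitriol in each wild-type mouse. In wild-type mice 1, 2 and 3 its level was 0.80, -0.05 and -1.60 with vehicle. With calcitriol it was -0.89, -1.75 and -3.70. In knockout mice 1, 2 and 3 it was 1.15, -0.71 and -1.77 with vehicle and 0.80, -0.58 and -1.75 with calcitriol. Vehicle and calcitriol values overlapped in both genotypes, and replicate 3 was the lowest array of every group. In wild type the overlap was that of the vehicle value of mouse 3 with the calcitriol value of mouse 1.

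Within wild-type mice 1, 2 and 3 the differences were -1.69, -1.71 and -2.10, and within knockout mice -0.34, 0.13 and 0.02. The wild-type means were -0.28 ± 1.22 with vehicle and -2.11 ± 1.44 with calcitriol (SD, n = 3 each), a difference of -1.83 or 3.56-fold, whose SE was 0.92 without and 0.14 with mouse as a replicate block. In the knockout, the difference was -0.06 (95% interval -2.08 to 1.95, adjusted p = 0.999872 by limma), and with mouse as a block the interval was -0.39 to 0.26 (adjusted p = 0.885). The wild-type difference was -1.80 with slide as a block but -0.52 on the largest slide, where the only vehicle array is that of mouse 3, the mouse with the lowest Spink1. The knockout difference turned to 1.25 with slide as a block and 1.89 on the largest slide, where likewise the only vehicle array is that of mouse 3. Without the vehicle array of replicate 2 the wild-type difference was -1.72.

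Markers of cell types that can make Spink1 were measured beside it. The 9 acinar markers, 3 of them above background on all arrays, had a summed level of 3.68 to 6.03 in wild-type vehicle, 2.88 to 3.75 in wild-type calcitriol, 2.67 to 4.86 in knockout vehicle and 3.13 to 4.24 in knockout calcitriol. Goblet and deep crypt secretory markers, all 9 above background on all arrays, summed to 89.5 to 188.2, 125.1 to 230.0, 103.8 to 180.9 and 117.5 to 176.6 in the same groups. Of these 9, Atoh1, a driver of secretory fate, was called higher with calcitriol in wild type, from 0.51 ± 0.40 to 2.35 ± 0.39 (SD, n = 3 each; limma adjusted p = 0.00987). The part of these cell types in the Spink1 and Klk11 differences was not tested.

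Spink4, a Kazal-type inhibitor of goblet cells, was higher with calcitriol in wild type. Its level in wild-type mice 1, 2 and 3 was 4.66, 4.33 and 3.38 with vehicle and 5.48, 5.50 and 4.11 with calcitriol, in all 3 mice the higher value. In all 3 knockout mice calcitriol was the higher value too, by 0.02 to 0.49. The wild-type difference of 0.91 (SE 0.47) had an adjusted p of 0.999907 by limma, and 0.0161 with mouse as a replicate block, where 0.965% of all genes passed; without wild-type mouse 1, 2 or 3 the blocked p was 0.120, 0.147 and 0.0616. Of the 11 other Spink genes, Spink2 was the only other one tested, at -3.69 ± 0.91 with vehicle and -3.33 ± 0.68 with calcitriol in wild type (SD, n = 3 each). Spink5, Spink7, Spink11, Spink12 and Spink14 were above background on none of 12 arrays.

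Slpi, a secreted inhibitor of neutrophil elastase and trypsin-like proteases that was singled out after its values were seen, was the one gene called among 11 tested epithelial protease inhibitors, and only with the block. It was higher with calcitriol in all 3 wild-type mice, by 1.28 to 2.90, against -0.25 to 0.45 in the knockout mice. The wild-type difference was 2.02 (SE 0.87, limma adjusted p = 0.999907), and with mouse as a replicate block the adjusted p was 0.0188, and 0.0321, 0.175 and 0.0360 without mouse 1, 2 or 3. Under calcitriol it was 1.66 lower in knockout, with a blocked p of 0.0283 in a comparison where 0.528% of all genes passed, and 0.149 without number 1. On the largest slide the wild-type differences were 1.65 for Spink4 and 3.72 for Slpi. The only wild-type vehicle array there is that of mouse 3, the lowest of the 3 for both genes. The brightest inhibitors, Wfdc2 and Serpinb6a, each differed by 0.13 in wild type and were not called.

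**Figure D4:**
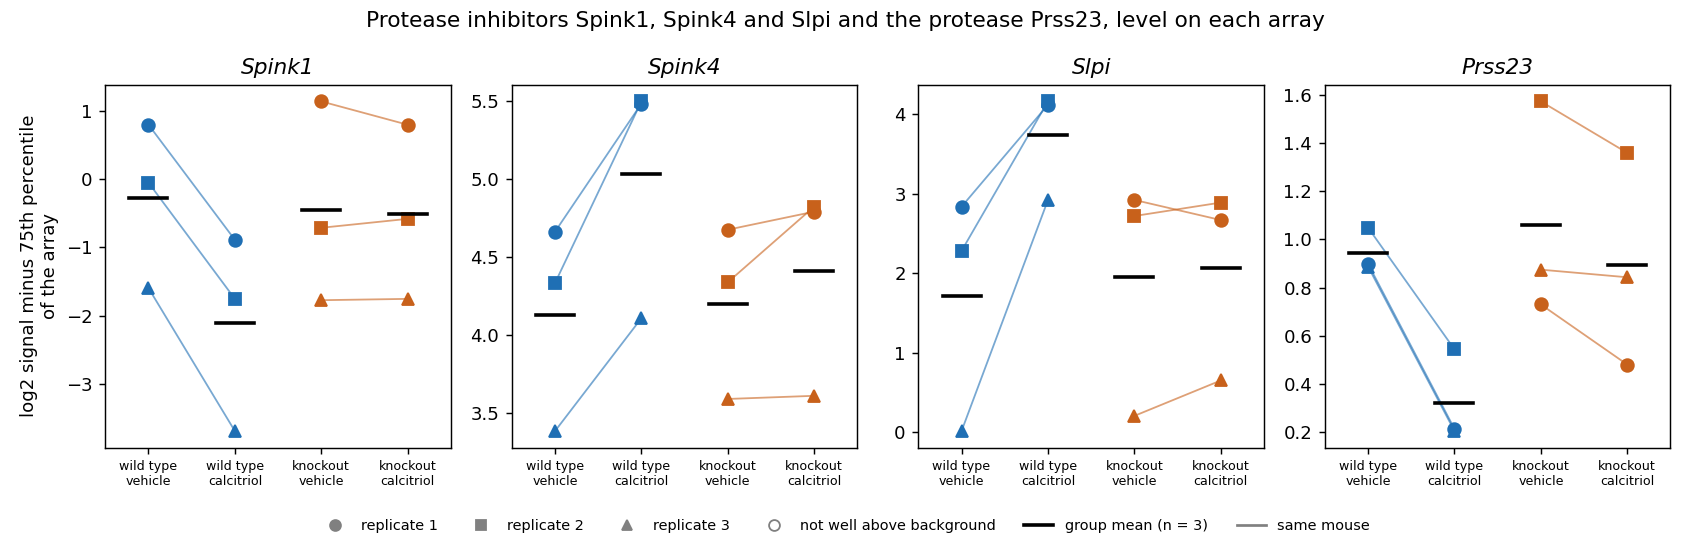
Levels (log2 signal minus the array's 75th percentile) of the inhibitors Spink1, Spink4 and Slpi and the protease Prss23 on each array; markers are replicates, lines join the arrays of a mouse and bars are group means. In all 3 wild-type mice Spink1 and Prss23 were lower and Spink4 and Slpi higher with calcitriol. In all 3 knockout mice Prss23 was also lower and Spink4 also higher, by smaller amounts, while Spink1 and Slpi differed in both directions.

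The proteases that these inhibitors could meet showed no call in the 12-array fit. Of 11 trypsin and enteropeptidase genes, 3 were tested, with a wild-type median of -0.07; Ctrb1, a chymotrypsinogen, was -2.17 ± 0.33 with vehicle and -2.24 ± 0.21 with calcitriol in wild type, Ctrl differed by -0.01, and Tmprss15, the enteropeptidase, was above background on none of 12 arrays. Prss2, the 1 trypsin tested and singled out after its values were seen, was -3.97 ± 0.71 with vehicle and -5.78 ± 0.27 with calcitriol in wild type, and -5.29 ± 0.19 and -5.14 ± 0.36 in the knockout (SD, n = 3 each). The wild-type groups of Prss2 did not overlap, as was so in this direction for 4.22% of all genes, and the difference of -1.81 (SE 0.43) did not pass, with a limma adjusted p of 0.276 and, with mouse as a replicate block, 0.186. Trypsin genes are close duplicates too, and its probe was above background on 2 of 3 wild-type calcitriol arrays. Of 16 epithelial serine protease genes, 15 were tested, with a wild-type median of -0.13; the membrane proteases Tmprss4 and Tmprss2 differed by 0.01 and 0.06. Prss23, singled out after its values were seen, differed by -0.68 to -0.50 in the 3 wild-type mice, with a limma adjusted p of 0.999907 and a blocked p of 0.0191, which was 0.177, 0.115 and 0.121 without mouse 1, 2 or 3. In the 3 knockout mice Prss23 was lower with calcitriol too, with differences of -0.25 to -0.03. Of 9 genes of the protease-activated receptors and the kinin pathway, 3 were tested and 0 were called in any comparison. F2rl1, the receptor cleaved by trypsin-like proteases, was -0.89 ± 0.20 with vehicle and -1.0 ± 0.26 with calcitriol in wild type (SD, n = 3 each), F2r differed by -0.03, and the bradykinin receptors Bdkrb1 and Bdkrb2 were above background on none of 12 arrays.

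Known vitamin D targets gave the scale of the response in the same cultures. Of 7 listed genes all were tested, and 4 were called higher with calcitriol in wild type and 0 in the knockout: Cyp24a1 (limma adjusted p = 2.09e-05), S100g, a calcium-binding protein (7.50, adjusted p = 5.48e-10), Trpv6, a calcium channel (4.47, adjusted p = 0.0102), and Atp2b1, a calcium pump (1.63, adjusted p = 2.33e-04). Klk11, at 4.54, lay near Trpv6, and its 3 mice spread from 2.57 to 6.74.

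Over the 12 arrays, the levels most like that of Klk11, among 14904 other tested genes with a symbol, were those of Gm2694 (Pearson r 0.96), Tmem210 (0.95), Mgll (0.94), Inmt (0.94) and Cyp24a1 (0.94). Each had its highest group mean in wild-type calcitriol: Mgll, a monoacylglycerol lipase, was -1.59 there and between -6.26 and -5.19 in the other groups, and Inmt, an N-methyltransferase, was -1.36 there and between -4.57 and -4.10. For Spink1 they were Ccl6 (0.98), Gm4827 (0.97), Cd34 (0.96), Bst1 (0.96) and Rasgef1a (0.96). Ccl6, a chemokine, had group means of 0.38, -0.48, 0.21 and 0.15 in wild-type vehicle, wild-type calcitriol, knockout vehicle and knockout calcitriol, and its arrays spread by over 1 log2 unit within each group, as those of Spink1 did. These correlations describe arrays that share mice, slides and treatment.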

How the data were processed

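Gene expression was measured on 12 one-colour Agilent arrays. The deposited intensity values are the processed signals of Agilent Feature Extraction 11.5.1.1, background-subtracted per the file headers. From these, log2 signal minus each array's 75th percentile (580.6 to 790.5) was computed after control spots and outlier spots were left out; spots of a probe were averaged. Probes had to exceed background clearly on each of the 3 arrays of some group, the probe with the highest mean stood for a gene, and accessions were named through RefSeq. All 24245 genes entered 1 limma 3.58.1 fit (R 4.3.3) of 4 group means with a mean-variance trend, 2-sided, with Benjamini-Hochberg adjustment at 0.05; this is the limma value unless a block is named. The script was tested on simulated data.

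Members and gene lists were chosen with earlier results of these data known. Named were all members, of each list the called genes and the 2 brightest, Vdr and Cyp24a1, and the 5 genes most like Klk11 and Spink1; other names are marked as chosen after their values were seen. Replicate numbers mark mice within a genotype; between genotypes they share the labelled age and sex. Deviations from group means of same-numbered arrays correlated at 0.10 to 0.64 in all 12 pairs, so the number served as a block. Without a block the p-values measure the spread between the 3 mice of a group, pooled over the groups. This fit ignores that each mouse gave both a vehicle and a calcitriol array. With the block they measure the spread of the differences within mice, or between same-numbered mice in the genotype comparisons. The number of arrays limits the precision. Alternatives were normexp correction (offset 50, on median spot signals, as the files hold no mean signal column), quantile normalization, median scaling, no filter, the replicate block, slide as a block, the largest slide, leaving out each array, and the mean of a gene's probes; raising dim Klk11 arrays was added after seeing the data.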

Additional observations from a re-analysis of the deposited data

Results flagged for a closer look

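The values of Klk13 lay lower with calcitriol in all 3 wild-type mice, with differences of -3.19 to -0.32, and higher in all 3 knockout mice, by 0.08 to 2.14, a difference of effects of -2.63. The difference was not tested, and only 3 of the 12 arrays measured the probe well above background. No mouse had both arrays well above background, and wild-type mouse 1 and knockout mice 1 and 2 had neither. A direction shared by all 3 mice of a genotype is therefore not established. The -3.19 is that of wild-type mouse 2, whose vehicle array stood apart by its share of bright spots.

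The calcitriol effect on Spink1 differed between genotypes by -1.77 (SE 1.31, and 0.20 with mouse as a replicate block), wild type minus knockout. The wild-type contrast that enters it picked the gene, so it is a description and no test of it is given.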

How the results depend on the processing

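Each mouse has a vehicle and a calcitriol array, so the replicate block cannot change a mean difference, only its SE and test. The Klk11 and Spink1 wild-type differences of 4.54 and -1.83 are therefore the same with it. Under every setting run that left no group with a single array, 0 members were called in the knockout. The same held for 0 of Klk1, Klk8 and Klk10 between genotypes. Klk11 and Spink1 are left out of the genotype counts because wild-type arrays picked them. Over all genes the wild-type calls went from 39 to 234 with the block, 70 with median scaling, 6 with slide as a block and 3 on the largest slide; the calcitriol genotype calls went from 50 to 128, 34 with slide as a block, and 16 on the largest slide. The Klk11 wild-type difference became 2.45 under normexp, and its difference of effects 2.34 under normexp and 5.30 under quantile normalization; the cause was not tested. Leaving out single arrays gave Klk11 3.88 to 5.15 and Spink1 -2.49 to -1.04 in wild type. Median scaling moved the median of all genes to 0.44 (wild type), -0.25 (knockout) and 0.70 (vehicle genotypes). Several differences changed sign, again with cause not tested. In the knockout these were Klk1 (normexp -0.010, median scaling -0.28, single arrays left out -0.23 to 0.13), Klk8 (normexp -0.0089, quantile -0.10, median scaling -0.26, single arrays left out -0.42 to 0.36) and Spink1 (slide block 1.25, largest slide 1.89, single arrays left out -0.73 to 0.73). Between vehicle genotypes they were Klk1 (normexp -0.0064, quantile -0.026, slide block -0.27, single arrays left out -0.31 to 0.24), Klk8 (quantile 0.078, median scaling 0.25), Klk10 (median scaling 0.26), Klk11 (quantile 0.83, median scaling 0.29) and Spink1 (median scaling 0.59, single arrays left out -0.96 to 0.50). Klk1 ran from -0.13 to 0.57 in wild type, from -0.14 to 0.57 in its difference of effects and between calcitriol genotypes from -0.56 to 0.073 as single arrays were left out, and the Klk8 difference of effects was -0.015 with slide as a block. Signal near background limits Klk11 on 5 arrays and Klk13 on 9.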
